A study of Mus musculus with 52 samples.

Results

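The Hist1 cluster is the main group of replication-dependent histone genes in the mouse. Its members were taken as the protein-coding genes on chromosome 13 whose symbol begins with Hist1h in the GENCODE M21 annotation of the mm10 build, which gave 54 genes of 21755 protein-coding genes on chromosomes 1 to 19 and X. They comprised 13 H2A, 15 H2B, 9 H3, 11 H4 and 6 H1 genes. Gaps of over 100 kb between members divided them into 4 blocks. The first, at chr13:21715763-21837530, held 18 members and ran from Hist1h2bl to Hist1h2br. The second, at chr13:22035164-22043676, held 5 members. The third, at chr13:23531050-23764406, held 29 members and ran from Hist1h4h to Hist1h1a. The last, at chr13:23933773-23934851, held Hist1h2ba and Hist1h2aa alone.

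Replication-dependent histone genes supply the core histones and the linker histone H1 during S phase, when newly copied DNA is packed into nucleosomes. They are short, mostly lack introns, and give mRNAs that end in a stem loop in place of a poly(A) tail. Many are arranged as divergent H2A and H2B pairs that share a promoter region. Hist1h1t, Hist1h2ba and Hist1h2aa are the testis-type members, expressed during male germ cell development. CTCF is a zinc finger protein that binds a long DNA motif and halts cohesin, the ring complex that extrudes chromatin loops. Rad21 is a core subunit of cohesin, and SmcHD1 is a chromosomal protein best known for its role on the inactive X chromosome.

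The data were ChIP-seq peak lists from clonal female mouse embryonic fibroblasts of a cross between FVB and Castaneus mice. The wt cells and the mut cells were each 1 clone from littermate embryos, and mut carried the germline SmcHD1 null allele MommeD1. The somKO cells were 2 clones in which SmcHD1 was removed with CRISPR in culture. By the clone names in the labels and the methods, their parent was a different wt line from the one used for wt ChIP-seq. Clone and genotype therefore cannot be told apart in either comparison. Autosomes of these clones are mosaics of the strains, and the strain carried at the Hist1 cluster was not examined. Each of the 8 lists came from merged reads of all libraries of its group, with 3 libraries behind each SmcHD1 list. The wt and mut lists came from 3 libraries each for CTCF and 2 each for Rad21, and either somKO list from 4. A list therefore has no replicate error, depth is unknown, and no difference below carries a p-value. The lists held 6993 SmcHD1 peaks in wt and 244 in mut, 57798 to 69736 CTCF peaks, and 66031 to 89974 Rad21 peaks. SmcHD1 and Rad21 chromatin was fixed with EGS and formaldehyde, CTCF chromatin with formaldehyde alone. Heights are given as the percentile of a peak's score within its own list, where 100 is the highest, because scores of different lists are on different scales.

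A sequence shared by most H2A members is shown first, because the CTCF results below refer to it. A weight matrix of 24 positions was built from 775 CTCF sites in the highest wt CTCF peaks of other autosomes, and the best match on either strand was found in each histone coding sequence. In 12 of the 13 H2A members the best match was the same 24 letters, at the same place in the coding sequence (first base 239, counted from the start codon) and on the strand opposite to the gene. The lines below give that strand, 5′ to 3′, from mm10, with the 24 positions in capitals. They show 3 of the 12 members, the testis-type member Hist1h2aa at the same place, the H2A pseudogene Hist1h2aj, and H2A genes on other chromosomes.
Hist1h2ab, chr13:23751353-23751412, minus strand: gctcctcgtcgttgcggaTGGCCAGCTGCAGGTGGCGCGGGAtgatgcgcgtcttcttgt
Hist1h2ag, chr13:22042648-22042707, plus strand: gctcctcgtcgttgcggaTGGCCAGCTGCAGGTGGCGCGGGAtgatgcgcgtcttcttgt
Hist1h2ak, chr13:21753548-21753607, plus strand: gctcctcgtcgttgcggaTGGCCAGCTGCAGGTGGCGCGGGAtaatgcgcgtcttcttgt
Hist1h2aa, chr13:23934682-23934741, minus strand: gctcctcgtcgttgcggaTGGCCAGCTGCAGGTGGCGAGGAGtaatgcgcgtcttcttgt
Hist1h2aj, chr13:21721540-21721599, plus strand: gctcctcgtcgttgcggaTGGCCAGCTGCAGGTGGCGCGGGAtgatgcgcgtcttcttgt
Hist2h2ac, chr3:96220565-96220624, plus strand: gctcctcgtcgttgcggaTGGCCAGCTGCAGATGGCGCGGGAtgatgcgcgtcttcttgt
Hist3h2a, chr11:58954958-58955017, minus strand: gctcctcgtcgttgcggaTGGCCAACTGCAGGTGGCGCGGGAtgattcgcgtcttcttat
H2afx, chr9:44334982-44335041, minus strand: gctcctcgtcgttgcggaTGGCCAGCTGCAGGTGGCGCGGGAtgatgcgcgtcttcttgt

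The shared match scored 13.01 bits. Of 10889 wt CTCF peaks on other autosomes, taken as windows of 390 bases, 50.6% held a match at least as good, and of 10173 windows of the same length 5 kb away 2.57% did. In Hist1h2aa the match differed at 3 positions, C20A, G23A and A24G (the shared letters first, positions counted from 1 at the left capital), and scored 9.51 bits. Best scores were 6.81 bits in all 15 H2B members, 6.09 to 6.61 bits in H3, 5.28 to 7.64 bits in H4 and 2.5 to 9.58 bits in H1. The matrix was made after the H2A peaks had been seen, and a match describes letters only.

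**Figure D1:**
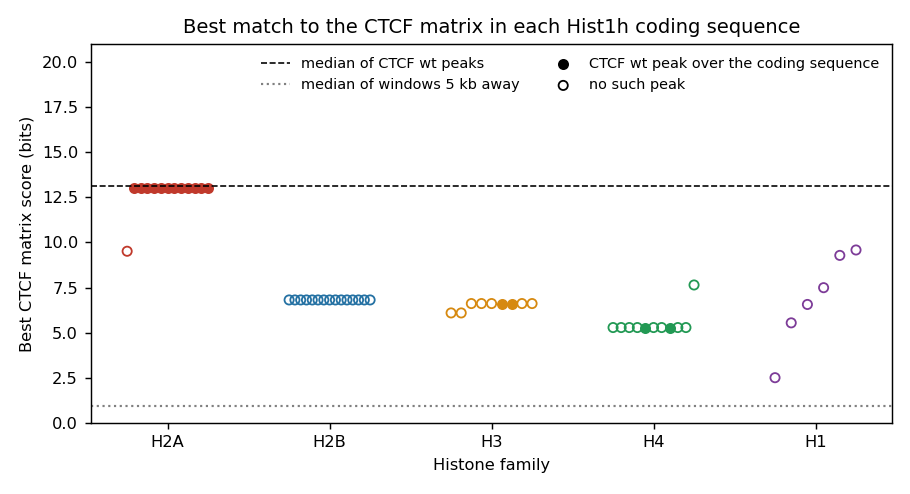
Best score of a match to the CTCF matrix (y axis, bits) in the coding sequence of each Hist1h gene, by histone family; filled points have a wt CTCF peak over the coding sequence. The dashed and dotted lines are medians of 13.1 bits in wt CTCF peaks and 0.954 bits in windows 5 kb away. The 12 filled H2A points lie together at 13.01 bits, above every point of the other families.

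To ask where CTCF lay in the cluster, peaks within 1 kb of each gene were counted. CTCF peaks were within 1 kb of 37 of the 54 members in wt, 43 in mut and 40 in somKO. Over all protein-coding genes the shares were 60.9%, 62.6% and 64.6%. Histone genes are short, with a median length of 532 bp against 17414 bp for all protein-coding genes, so a window of fixed size was also used. Within 1 kb of the start site, 35 of 54 members had a wt CTCF peak, against 27.2% of all genes. The order turned where a peak had to overlap the gene itself: 17 members (31.5%) had one in wt, 25 (46.3%) in mut and 23 (42.6%) in somKO, against 56.3%, 58.1% and 60.3% of all genes.

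The families differed in where those peaks lay. Over the coding sequence, CTCF peaks were called in 16 members in wt, 24 in mut and 22 in somKO, against 25.5%, 28.9% and 29.8% of all genes, whose coding sequences are longer on the whole. The 16 members in wt were 12 H2A genes, Hist1h3e, Hist1h3d, Hist1h4f and Hist1h4c. All 12 H2A genes of the first 3 blocks had a peak over the coding sequence in each genotype, and Hist1h2aa had none in any list. No H2B coding sequence had a CTCF peak in any genotype, 0 of 15 in each.

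In wt the midpoints of the 12 H2A peaks lay 163 to 245 bp after the start codon, with a median of 226 bp, and the peaks were 206 to 527 bp wide. Their percentiles ran from 25 at Hist1h2af to 54.1 at Hist1h2ah, with a median of 45.9. The H2A peaks were thus of middle rank in the wt list and close to each other in position. In mut the percentiles ran from 45.6 at Hist1h2ak to 65.1 at Hist1h2ab, and in somKO from 30.8 at Hist1h2af to 66.6 at Hist1h2ah.

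**Figure D2:**
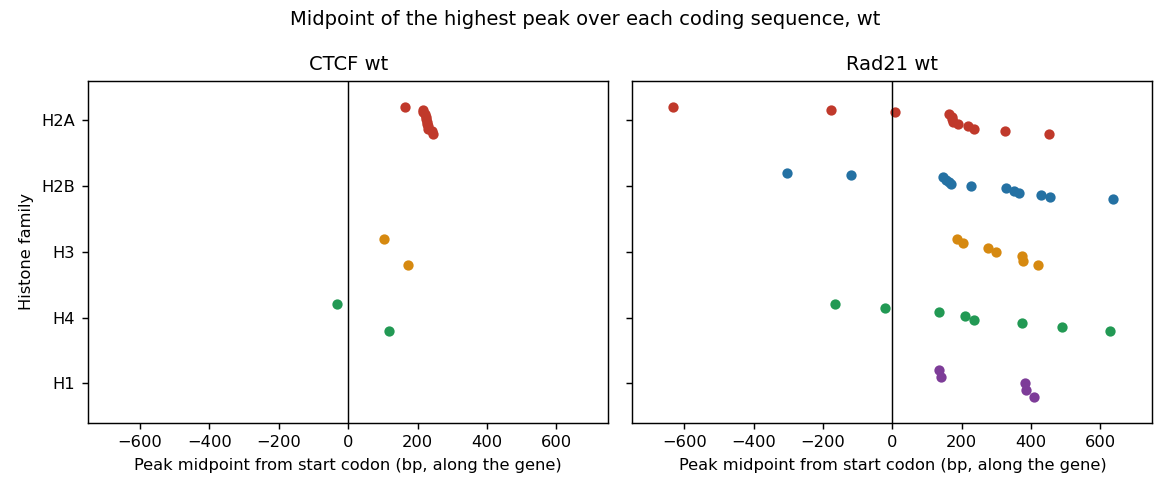
Distance of the midpoint of the highest peak over each coding sequence from the start codon (x axis, bp along the gene) in wt, by family, for CTCF (left) and Rad21 (right); 1 point is 1 gene. The 12 H2A points of CTCF lie between 163 and 245 bp, whereas H2A points of Rad21 run from -631 to 452 bp.

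The H2B genes with a CTCF peak within 1 kb were largely the partners of those H2A genes. Of the 15 H2B members, 11 were divergent from the nearest H2A member, with start codons 279 to 335 bp apart. Of the 13 H2B members with a wt CTCF peak within 1 kb, 10 had an H2A coding peak among them. Hist1h2bm lies beside the pseudogene Hist1h2aj, whose CTCF peak was at percentile 40.4 in wt, 55.7 in mut and 45.0 in somKO. Hist1h2bb lies beside the pseudogene Gm11336, whose values were 48.0, 59.1 and 54.8.

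The same 24 letters were then searched on chromosomes 1 to 19 and X. They occurred 18 times, of which 12 were in Hist1h members. CTCF peaks covered 17 of the 18 copies in wt, 17 in mut and 17 in somKO. The copies outside the members were in Hist2h2aa1 and Hist2h2aa2 of the smaller histone cluster on chromosome 3, in H2afx, which encodes the H2A variant that is phosphorylated at DNA breaks, and in the pseudogenes Hist1h2aj, Gm11336 and Hist1h2al. The copy without a CTCF peak in any list was Hist1h2al, a processed pseudogene at chr13:51202819-51202842, far from the cluster. H2afx had the highest peak of the 18, at percentile 80.5 in wt, 92.1 in mut and 88.6 in somKO. Hist2h2ac and Hist3h2a each differed from the shared letters at 1 position, G14A and G7A, and had wt CTCF peaks at percentiles 30.4 and 80.1. In Hist2h2ab the best match scored 2.13 bits and no CTCF peak lay over the coding sequence in any genotype. Score and peak did not always go together: the best match in Hist2h2be scored 12.25 bits, and no CTCF peak lay over its coding sequence in any genotype. The wt Rad21 peak over Hist1h1b, at percentile 38.2, held a match of 13 bits outside the coding sequence and overlapped no CTCF peak.

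Near-identical copies share reads, and how reads with several possible positions were treated is not given in the sources used here. Between H2A members of equal length, coding sequences were 96.4% to 100% identical. Of the windows of 32 bases in a coding sequence, the median share found once in the genome was 11.4% in H2A members, 12.7% in H2B, 13.3% in H3, 22.3% in H4 and 83.8% in H1. In Hist1h2aa the share was 88.8%. The part of shared reads in the single values of H2A genes, or in those of the other families, was not tested.

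**Figure D3:**
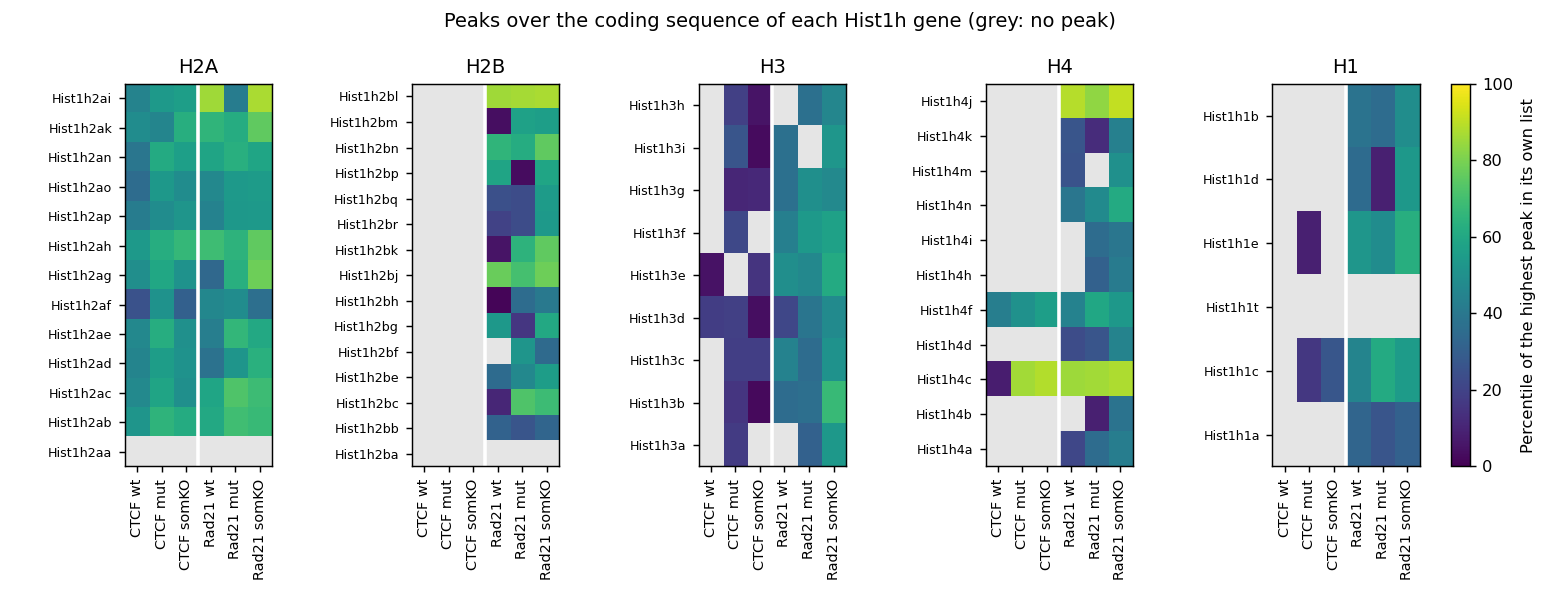
Percentile of the highest peak over the coding sequence of each Hist1h gene (colour scale, percentile within the peak's own list) in the 6 CTCF and Rad21 lists, by family, with genes in genomic order; grey means no peak. CTCF columns are filled throughout H2A but for Hist1h2aa, and empty throughout H2B, whereas Rad21 columns are filled in nearly all genes other than Hist1h1t, Hist1h2ba and Hist1h2aa.

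The highest CTCF peaks near members lay outside coding sequences. In wt the 5 members with the highest CTCF peak within 1 kb included Hist1h4j at percentile 82.4, Hist1h4c and Hist1h1t, which shared 1 peak at 81.6, and Hist1h2be at 78.5. The next was a peak at 76.2 shared by Hist1h2bl and Hist1h2ai. The Hist1h2be peak lay in the body of a long gene model, with its midpoint at -12480 bp relative to the start codon. The highest peak in the intervals, at percentile 97.6 in wt, 92.7 in mut and 96.1 in somKO, lay at chr13:23630568-23631078 and was not within 1 kb of a member. The best matches to the matrix in these peaks are given to contrast them with the H2A letters, with the 24 positions in capitals and on the strand of the match.
Near Hist1h4j, chr13:21734257-21734316, minus strand: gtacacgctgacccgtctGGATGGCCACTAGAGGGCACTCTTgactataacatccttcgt
In the Hist1h2be gene model, chr13:23598151-23598210, minus strand: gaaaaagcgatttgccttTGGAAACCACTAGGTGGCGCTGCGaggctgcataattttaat
Between members of the third block, chr13:23630818-23630877, plus strand: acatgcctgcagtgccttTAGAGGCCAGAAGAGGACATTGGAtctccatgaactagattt
Near Hist1h4c and Hist1h1t, chr13:23697539-23697598, minus strand: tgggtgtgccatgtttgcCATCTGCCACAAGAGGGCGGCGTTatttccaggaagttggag

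These matches scored 22.17, 19.26, 14.08 and 20.44 bits. Over the 16 wt CTCF peaks in or within 1 kb of the blocks that covered no member's coding sequence, the median score was 14.7 bits and the median percentile 76.0. This group is not free of the H2A letters: it includes the peaks at the pseudogenes Hist1h2aj and Gm11336, which hold them at 13.01 bits. The 4 wt CTCF peaks over coding sequences outside H2A had a median of 6.61 bits and a median percentile of 13.1. The H2A peaks, at 13.01 bits and a median percentile of 45.9, lay between the medians of the other groups in match score and in rank. Single peaks did not keep this order. Those over no member's coding sequence ran from 3.14 to 22.2 bits and from percentile 10.6 to 97.6. The peak at chr13:21724718-21724924 held 18.42 bits at percentile 10.6, and that at chr13:23563108-23563469 held 7.56 bits at 64.7.

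Rad21 peaks were spread over nearly the whole cluster. They were within 1 kb of 49 of 54 members in wt, 51 in mut and 52 in somKO, against 66.4%, 68.2% and 71.0% of all protein-coding genes. Over the coding sequence they were called in 45, 49 and 51 members, against 40.3%, 43.6% and 47.9% of all genes. Around the start site alone, 46 members had a wt Rad21 peak, against 48.2% of all genes. By family, coding sequences with a wt Rad21 peak were 12 of 13 in H2A, 13 of 15 in H2B, 7 of 9 in H3, 8 of 11 in H4 and 5 of 6 in H1.

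The testis-type genes stood outside this pattern. Hist1h2ba and Hist1h2aa had no CTCF, Rad21 or SmcHD1 peak within 1 kb in any of the 8 lists. Hist1h1t had no peak over its coding sequence in any list, although the strong CTCF and Rad21 site shared with Hist1h4c lay within 1 kb of it. Members without a Rad21 peak over the coding sequence were 9 in wt, 5 in mut and 3 in somKO. The testis-type genes were among them in each genotype, and in somKO they were the only ones. The others were Hist1h3h, Hist1h3a, Hist1h2bf, Hist1h4i, Hist1h4h and Hist1h4b in wt, and Hist1h3i and Hist1h4m in mut. They were singled out after their values were seen, and gene activity was not measured in these lists.

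The share of Rad21 peaks in the blocks with a CTCF peak was near the autosomal share, below it in wt and somKO and above it in mut. Of the 53 Rad21 peaks in the blocks in wt, 27 (50.9%) overlapped a CTCF peak of the same genotype, and of all autosomal Rad21 peaks 58.5% did. In mut the shares were 63.8% of 58 peaks in the blocks and 58.0% of autosomal peaks, and in somKO 50.8% of 63 and 54.6%. Rad21 peaks with CTCF ranked higher, with a median percentile of 58.8 against 31.9 for those without in wt, 59.6 against 23.3 in mut and 60.6 against 34.6 in somKO. The same order held over all autosomes, with 70.3 against 24.6 in wt. At the level of coding sequences, 16 members had both proteins in wt, 29 had Rad21 alone, none had CTCF alone and 9 had neither. In H2B, 13 members had Rad21 alone and none had both. Rad21 alone here means that no CTCF peak lay over the coding sequence. The wt Rad21 peaks over Hist1h2bl, Hist1h2bn, Hist1h2bp, Hist1h2bj, Hist1h4j and Hist1h4a did overlap a CTCF peak outside those coding sequences.

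The highest Rad21 peaks in the blocks in wt, 4 peaks at percentiles 91.4 to 94.9, were not within 1 kb of a member. Of those within 1 kb, the peak in the Hist1h2be gene model was highest at percentile 90.6, followed by that of Hist1h4j at 88.7, that shared by Hist1h2bl and Hist1h2ai at 85.9, and that shared by Hist1h1t and Hist1h4c at 85.5. Away from those sites, the highest wt Rad21 peak over an H2A coding sequence was that of Hist1h2ah, at 69.0. In mut the highest was that of Hist1h2ac, at 72.3. Peaks of Rad21 were wide, with a median of 638 bp for those within 1 kb of members in wt, 706 bp in mut and 1000 bp in somKO. The divergent genes Hist1h2ak and Hist1h2bn, for example, shared 1 Rad21 peak in each genotype.

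In peak density, the blocks exceeded their surroundings for both proteins. The 4 blocks cover 365 kb in all. The blocks held 82.3 CTCF peaks per Mb in wt, 98.7 in mut and 93.2 in somKO, against 17.8, 16.7 and 20.5 in the rest of chromosome 13 and 23.6, 22.8 and 27.3 over the autosomes. They held 145.0 Rad21 peaks per Mb in wt, 159.0 in mut and 173.0 in somKO, against 23.2, 20.6 and 30.4 in the rest of the chromosome. The blocks are bounded by genes and dense in them, and most of the peaks were beside members: 23 of 30 CTCF peaks and 49 of 53 Rad21 peaks in wt.

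**Figure D4:**
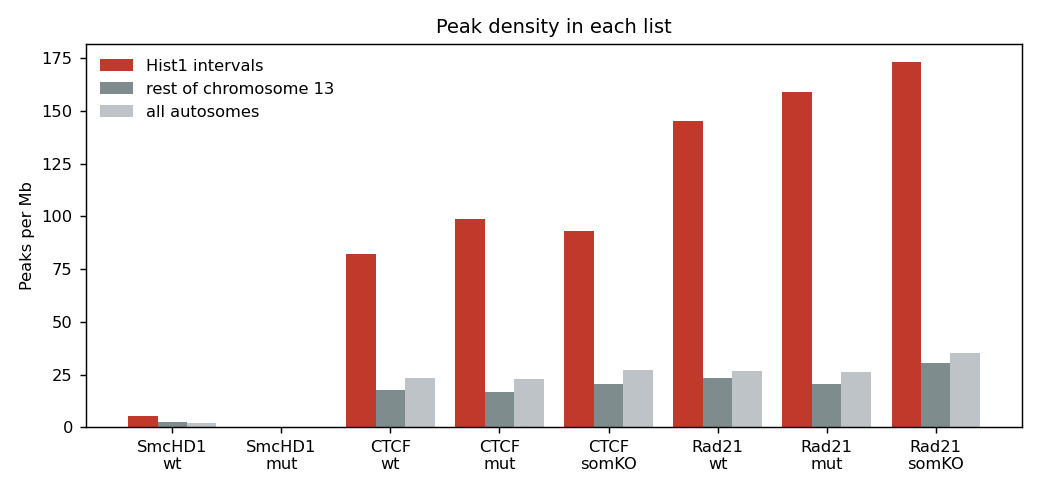
Peaks per Mb (y axis) in the Hist1 blocks, in the rest of chromosome 13 and over all autosomes, for each of the 8 lists. Each bar is 1 list without replicates; the block bars of CTCF (82.3 to 98.7) and Rad21 (145.0 to 173.0) stand above the others, while those of SmcHD1 rest on 2 peaks in wt and none in mut.

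SmcHD1 was seen at few members. In wt, 2 of 54 members had an SmcHD1 peak within 1 kb, against 7.97% of all genes, and 1 had it within 1 kb of the start site, against 4.9%. In mut none had, against 0.602% of all genes, in a list of 244 peaks. The 2 members in wt were Hist1h2bm and Hist1h1d. By density the order turned, with 5.48 wt SmcHD1 peaks per Mb in the blocks against 2.62 in the rest of chromosome 13 and 2.09 over the autosomes. The block value rests on 2 peaks. The peak at Hist1h2bm, a core histone H2B gene, had a score of 49 at percentile 56.3, and that at Hist1h1d, a linker histone gene, a score of 24 at percentile 15.9. Both lay over coding sequence, both overlapped a Rad21 peak in each genotype, and neither overlapped a CTCF peak in any genotype. Of the 54 coding sequences, 45 had a Rad21 peak in wt and 16 a CTCF peak, whether or not SmcHD1 was there. Their sequences are printed to show what the protein's few peaks in the cluster covered, on the plus strand of mm10 with CG dinucleotides in capitals.
Hist1h2bm, chr13:21722186-21722429: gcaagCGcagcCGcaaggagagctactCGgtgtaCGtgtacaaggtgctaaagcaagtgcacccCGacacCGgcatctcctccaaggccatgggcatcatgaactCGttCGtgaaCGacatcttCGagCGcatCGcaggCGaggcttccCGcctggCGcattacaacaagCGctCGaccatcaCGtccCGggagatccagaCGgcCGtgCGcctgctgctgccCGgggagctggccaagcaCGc
Hist1h1d, chr13:23555079-23555342: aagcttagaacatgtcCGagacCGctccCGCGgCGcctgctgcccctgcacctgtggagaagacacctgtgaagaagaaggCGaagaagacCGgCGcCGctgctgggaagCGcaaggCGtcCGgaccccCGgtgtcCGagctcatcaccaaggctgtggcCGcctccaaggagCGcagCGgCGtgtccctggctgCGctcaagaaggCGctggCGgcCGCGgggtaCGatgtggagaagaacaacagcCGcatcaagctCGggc

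The Hist1h2bm peak held 24 CG dinucleotides at 63.1% G and C, and the Hist1h1d peak 26 at 66.3%. Histone coding sequences without SmcHD1 were not counted in this way, so whether these values are unusual is not known. Both peak scores were low, and a score of at least 50 left neither peak.

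The genotypes were compared next. No member lost its CTCF peak within 1 kb in mut or in somKO, 0 of 37 in each, against 4.38% and 1.52% of all genes with a wt peak. Of the 17 members without a wt CTCF peak, 6 had one in mut, against 11.0% of such genes, and 3 had one in somKO, against 11.8%. The 6 in mut were Hist1h3i at percentile 26.5, Hist1h3f at 21.8, Hist1h3a at 17.3, Hist1h1c at 16.1, Hist1h3g at 10.9 and Hist1h1e at 8.64. Those in somKO were Hist1h1c at 26.6, Hist1h3g at 11.6 and Hist1h3i at 3.07. Such peaks were of low rank in both lists, and they were H3 and H1 genes without exception.

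The H3 family carried most of this difference. CTCF peaks lay over 2 of 9 H3 coding sequences in wt, 8 in mut and 7 in somKO. The wt genes were Hist1h3d at percentile 18.3 and Hist1h3e at 4.86. In mut the range was 10.9 to 26.5, with a median of 18.9, and Hist1h3e had none. In somKO it was 2.7 to 18.6, with a median of 5.17. Over all members, 9 of 38 gained coding overlap in mut, against 7.99% of genes without it in wt, and 6 of 38 in somKO, against 7.86%. With the 3 CTCF lists cut to equal length by score, H3 genes with such a peak were 2 in wt, 8 in mut and 1 in somKO. The mut list is the shortest of the 3, so this step could not remove a mut peak. All 3 Hist2h3 genes on chromosome 3 had a CTCF peak over the coding sequence in each genotype. Coding sequences of H3 members were 96.8% to 99.3% identical to each other, so their peaks need not be separate. The part of shared reads in the H3 counts was not tested.

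**Figure D5:**
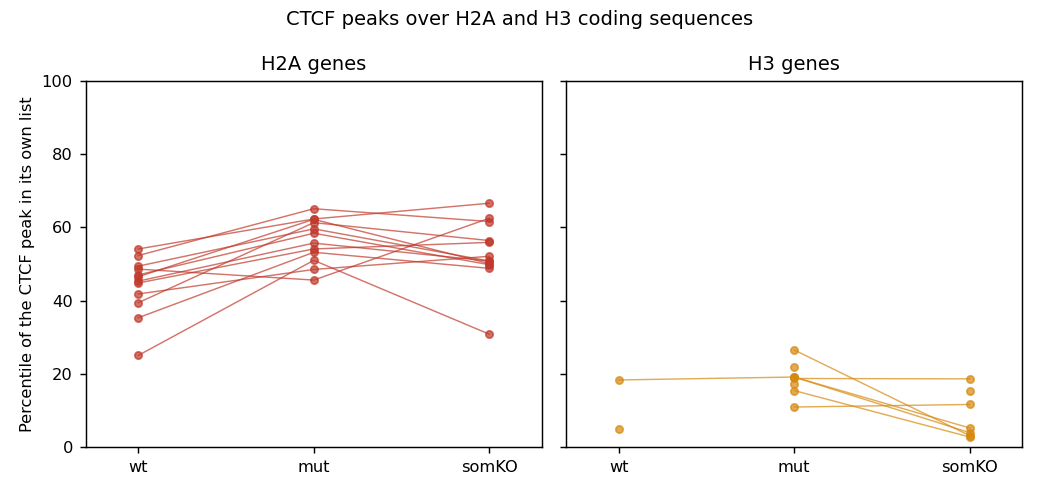
Percentile of the CTCF peak over each H2A (left) and H3 (right) coding sequence within its own list (y axis) in wt, mut and somKO; lines join the values of 1 gene, and genes without a peak in a list have no point there. H2A points lie between 25 and 66.6, and H3 points between 2.7 and 26.5.

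The H2A peaks themselves held higher percentiles outside wt. In mut, 11 of 12 were higher than in wt, with a median shift of 10.9 percentile points, and in somKO 12 of 12 were, with a median shift of 9.73. Other autosomal genes with a coding CTCF peak in the same wt range, 25 to 54.1, showed this as well: 71.0% of 806 were higher in mut and 81.0% of 872 in somKO, with median shifts of 7.01 and 8.33. The median H2A shifts lay inside the quartiles of those genes, -1.62 to 15.5 in mut and 1.73 to 13.7 in somKO. Shifts of single H2A genes lay on both sides of these ranges. Hist1h2an was above them in both genotypes, Hist1h2ak was below in mut and Hist1h2ag was below in somKO.

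For Rad21, the members gained within 1 kb were H4 genes. Of the 5 members without a wt Rad21 peak within 1 kb, 3 had one in mut and 3 in somKO, against 13.4% and 15.6% of such genes, and they were the same genes, Hist1h4i, Hist1h4h and Hist1h4b. Hist1h4i was at percentile 35.2 in mut and 39.4 in somKO, Hist1h4h at 31.0 and 41.6, and Hist1h4b at 8.93 and 37.9. The other 2 were Hist1h2ba and Hist1h2aa. Only Hist1h3i lost its peak in mut, 1 of 49 against 4.04% of genes with a wt peak, and it was at percentile 37.1 in wt and 52.6 in somKO. No member lost it in somKO, 0 of 49 against 0.991%. Over coding sequences, 6 of 9 members without a wt Rad21 peak had one in mut, against 11.5%, and 6 in somKO, against 14.3%. In both genotypes these were Hist1h3h, Hist1h3a, Hist1h2bf and the 3 H4 genes. Of the 45 members with coding overlap in wt, 2 had none in mut, Hist1h3i and Hist1h4m, and all had it in somKO, against 8.8% and 2.33% of all genes with it in wt.

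Counted as peaks in the blocks, 10 of 36 mut CTCF peaks (27.8%) overlapped no wt peak, against 15.7% in the rest of chromosome 13 and 17.0% over the autosomes. Of 30 wt CTCF peaks, 3 (10.0%) overlapped no mut peak, against 21.2% and 19.6%. In somKO, 6 of 34 CTCF peaks (17.6%) were gained, against 22.4% over the autosomes, and 1 of 30 was lost, against 7.72%. For Rad21, 11 of 58 (19%) were gained in mut, against 27.5%, and 6 of 53 (11.3%) were lost, against 28.3%. In somKO, 21 of 63 Rad21 peaks (33.3%) were gained, against 37.8%, and none of 53 was lost, against 7.27%. Losses in mut were below the autosomal share for both proteins, also at an overlap of 50% of both peaks, at a score of at least 50 and with lists of equal length, where they ran from 6.9% to 34.0% against 16.3% to 48.1%. Losses in somKO did not keep this order: at an overlap of 50%, 24 of 53 Rad21 peaks (45.3%) were lost against 41.4%, and at a score of at least 50, 2 of 29 CTCF peaks (6.9%) against 4.74%. The comparisons share their wt lists.

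Other histone genes were set beside the cluster. Over all protein-coding genes, the wt shares with a peak within 1 kb were 60.9% for CTCF, 66.4% for Rad21 and 7.97% for SmcHD1. Of the 13 replication-dependent genes of the Hist2, Hist3 and Hist4 loci, 11 had a wt CTCF peak and 12 a wt Rad21 peak within 1 kb, and none an SmcHD1 peak. Over the coding sequence, CTCF was at 4 of 5 H2A, 3 of 3 H3, 1 of 2 H4 and 0 of 3 H2B genes in wt, against 25.5% of all genes. H2B coding sequences were thus without a CTCF peak in all loci. Of 11 replacement histone genes, most of which are also expressed outside S phase, 8 had CTCF and 11 Rad21 within 1 kb in wt. SmcHD1 was at 3 of them, H3f3b, H2afy and H1f0. Of 14 genes of the histone locus body and histone mRNA processing, 10 had CTCF, 12 Rad21 and none SmcHD1 within 1 kb in wt. The counts of these 14 genes were not tested against the shares of all genes. Npat, the coactivator of histone genes at S phase entry, had a Rad21 peak within 1 kb in mut and somKO and not in wt. Of all genes without such a wt peak, 13.4% had it in mut and 15.6% in somKO.

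The promoters of members shared short elements that the choice of members did not use. RefSeq promoters (GRCm38.p6, 250 bases before to 50 after the start) were matched for 50 members and gave 51 promoters. CCAAT, the letters bound by NF-Y, was found on either strand in 43 of 51 (84.3%), against 37.6% of 32619 promoters. It was in all promoters of H2A, H2B, H3 and H1 members that were matched, 12, 15, 7 and 6 of them, and in 3 of 11 H4 promoters. TATAAA was in 31 of 51 (60.8%), against 13.7%. H2A and H2B promoters both held CCAAT, while CTCF lay over H2A and not over H2B coding sequences. However, 11 of the 15 H2B members are divergent from an H2A member, with start codons 279 to 335 bp apart. Promoter windows of such a pair can cover the same bases, so the CCAAT counts of H2A and H2B are not independent. The 150 bases before the start of an H2A gene and of an H4 gene with Rad21 in mut and somKO alone are given on the strand of the gene, with CCAAT and TATAAA on either strand in capitals.
Hist1h2ag, chr13:22042950-22043099, minus strand: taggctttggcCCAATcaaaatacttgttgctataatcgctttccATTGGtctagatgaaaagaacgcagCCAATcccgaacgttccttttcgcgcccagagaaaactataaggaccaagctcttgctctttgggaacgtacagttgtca
Hist1h4i, chr13:22041363-22041512, minus strand: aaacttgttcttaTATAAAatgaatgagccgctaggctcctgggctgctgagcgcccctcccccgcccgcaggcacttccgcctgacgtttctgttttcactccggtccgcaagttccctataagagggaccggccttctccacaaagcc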

How the data were processed

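ChIP-seq was done by the authors in MEF clones, and 8 of the peak lists they deposited were used, covering 24 of 52 libraries. Per the labels, the tools were Bowtie2 and MACS2 and the build mm10. The authors merged replicates, aligned to a genome with masked strain variants, and called narrow peaks on reads of both alleles. Tool versions, mapping quality filters and use of inputs are not given in the sources used here. The score column that the authors deposited appears to hold -log10 q-values multiplied by 10, with a lowest value of 13 in each list. This is an inference, and scores served solely for ranks and thresholds inside a list. Libraries for H3K27me3 and the inputs were not used here.

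Peaks were counted within 1 kb of GENCODE M21 genes, in blocks split at gaps over 100 kb, and as gained or lost where no peak of the other list overlapped by 1 bp. Coding overlap, the CTCF matrix (a consensus of 12 letters with 1 mismatch in the 1000 highest peaks, then 24 positions), and the copy counts were added after the data were seen. Percentiles are mid-ranks. There were no replicate lists and hence no test. Named genes were all members with SmcHD1, members called in some genotypes and not in all for CTCF or Rad21, and the 5 highest members in wt. Members and gene lists were chosen with earlier results of these data known. Overlap and matrix steps were tested on simulated data. Python 3.11.15, pandas 2.3.3, NumPy 2.4.6 and pysam 0.24.0 were used.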

Additional observations from a re-analysis of the deposited data

How the results depend on the processing

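No paired analysis was possible because each group has 1 merged list and no result comes from a test. Of 121 alternative values for 33 counts and shares, 88 stayed within 1.5 times the value reported. Requiring overlap with the gene itself left 17, 25 and 23 members with CTCF (wt, mut and somKO), and overlap with the coding sequence 16, 24 and 22. SmcHD1 in wt fell to 1 member at the start site and to 0 members and 0 block peaks at a score of at least 50. With 1 undivided interval, peaks numbered 6 and 1 for SmcHD1 in wt and mut, 58, 60 and 62 for CTCF across the 3 genotypes, and 89, 94 and 116 for Rad21, since that interval holds other genes. At an overlap of 50% of both peaks, CTCF losses were 6 in mut and 2 in somKO, Rad21 gains 23 and 34, Rad21 losses 18 and 24, and the share of Rad21 peaks with CTCF was 18.9%, 32.8% and 11.1% in wt, mut and somKO. With lists of equal length, somKO gained 2 CTCF and 10 Rad21 peaks and lost 3 CTCF peaks; at a score of at least 50 the CTCF losses were 2. H3 genes with CTCF over the coding sequence were 1 in wt and 3 in somKO at a score of at least 50, and 1 in somKO with lists of equal length. The 12 H2A genes with CTCF numbered 12 in each genotype under both settings. Beyond the construction of each setting, the cause was not tested. Depth is unknown, so a peak that is not listed was not detectable rather than absent.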

Other observations

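Among H1 members, Hist1h1e and Hist1h1c held the best matches to the CTCF matrix, at 9.58 and 9.28 bits, and were also the H1 members with a CTCF peak over the coding sequence in mut, at percentiles 8.64 and 16.1. Neither had such a peak in wt, and in somKO only Hist1h1c did, at 26.6. Hist1h1t followed at 7.49 bits with no such peak in any list. Between families, score and peak did not go together in mut. Of 9 H3 members, at 6.09 to 6.61 bits, 8 had such a peak, and none of 15 H2B members did, at 6.81 bits. Hist1h4c moved from percentile 7.98 in wt to 86.2 in mut and 88.4 in somKO for CTCF over its coding sequence. In wt a peak of 220 bp over the gene and the neighbouring strong peak of 555 bp were listed apart, whereas mut and somKO listed single peaks of 996 and 1110 bp over both, so that these values do not compare the same interval.

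Between the blocks, wt SmcHD1 peaks lay at chr13:22051067-22051381, chr13:23285311-23285578, chr13:23400866-23401835 and chr13:23412382-23412919, at percentiles 3.58, 30.3, 60.0 and 64.6. The first and the third overlapped a CTCF and a Rad21 peak in all 3 genotypes. Together with the peaks at Hist1h2bm and Hist1h1d, 5 of the 6 wt SmcHD1 peaks between the first and last member overlapped a wt Rad21 peak and 2 a wt CTCF peak. The share of all wt SmcHD1 peaks with such an overlap is not given here, so whether these counts are unusual is not known.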
